A study of Mus musculus with 20 samples.

Results

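The comparison asked what changed in the liver when Aroclor 1260 was given together with PCB 126 instead of PCB 126 alone. RNA-seq counts were compared between the livers of 5 mice that received both agents (HFD + Aroclor + PCB 126) and 5 mice that received PCB 126 only (HFD + PCB 126), which are 10 of the 20 libraries of the study. The other groups, HFD control and HFD + Aroclor, hold 5 mice each. All 20 were male C57Bl/6J mice, and every group ate a high-fat diet (HFD) in which 42% of the energy came from fat. Per the study's methods, mice bought at 8 weeks of age had the diet for 2 weeks and then a single oral gavage, at 10 weeks of age, of corn oil alone or of oil holding 20 mg/kg Aroclor 1260, 20 µg/kg PCB 126 or both agents. Livers were taken 10 weeks after the gavage by the methods, whereas the labels give 12 weeks for the exposure, which by the methods is the time on the diet. No group ate a control diet, each library is 1 liver, and whole liver was sequenced, so fewer cells of a type and less RNA per cell cannot be told apart. Of 21780 genes in the table, 15522 reached 10 counts summed over all 20 libraries and were tested.

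Both agents reach the liver transcriptome through xenobiotic receptors. PCB 126 is a dioxin-like congener that binds the aryl hydrocarbon receptor (AhR). The ligand-bound AhR pairs with ARNT and binds DNA at elements with the core GCGTG, and the cytochrome P450 genes Cyp1a1 and Cyp1a2 are its best known hepatic targets. Aroclor 1260 is a technical mixture of mostly non-dioxin-like congeners, which are known as activators of the constitutive androstane receptor (CAR) and the pregnane X receptor (PXR). Cyp2b10 and Cyp3a11 are the usual readouts of these receptors in mouse liver.

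To show where the AhR core lies in the genes described first, the RefSeq promoter windows of the AhR targets (250 bases before to 50 after the start) were searched for GCGTG on both strands (build GRCm38.p6, 5 of 5 genes matched by symbol). Cyp1a1, Cyp1b1 and Tiparp each held 1 match, upstream of the start, while Cyp1a2 and Nqo1 held 0 in these windows, which leave out sites farther away. The core is not particular to these genes, since 32.4% of 32851 promoter windows of the same length held it. In the 25 bases around each match, printed 5′ to 3′ on the strand that reads GCGTG, the capitals mark the core.
Cyp1a1 (chr9:57697549-57697573, plus strand): agataaggagGCGTGgccaacagac
Cyp1b1 (chr17:79715123-79715147, plus strand): agggggtgggGCGTGaggggcggga
Tiparp (chr3:65528267-65528291, minus strand): cctcccgtgcGCGTGctccggacgg

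Both AhR-induced Cyp1a genes were lower with the combined exposure than with PCB 126 alone. Cyp1a1 (chr9:57687928-57703824), whose promoter window is the first above, stood at 4.08, 7.8, 4.6, 314 and 62 CPM (counts per 1e6 counts of the library) in the PCB 126 mice 1 to 5. In the combined group it was at 0.792, 1.19, 0.875, 1.13 and 2.62 CPM. The groups did not overlap, and mice 4 and 5 of the PCB 126 group stood far above the other 3. Cyp1a1 fell in the quasi-likelihood test of edgeR, with p-values adjusted by Benjamini-Hochberg over all genes tested (log2 fold change −5.87, SE 1.00, adjusted p = 0.0136). Leaving out each of the 10 mice in turn gave log2 fold changes from −6.29 to −3.88, past the threshold of 0.05 in 10 of 10. With the correction for GC content described below, Cyp1a1 was at −6.00 (SE 1.01, adjusted p = 0.0586), past the threshold no longer, and with the library GC slope as a covariate at −2.85 (adjusted p = 0.989). The other groups put these levels in scale, with 0.219 to 0.941 CPM in HFD control and 0.738 to 1.23 CPM in HFD + Aroclor. The Cyp1a1 range of the combined group thus overlapped those of both groups without PCB 126, though its mouse 5 stood above both. The range of PCB 126 alone lay above all of them.

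Cyp1a2 (chr9:57676937-57683703), the constitutive hepatic member of the family, is beside Cyp1a1 on the opposite strand. Its levels were 1120.0, 1127, 1495, 2601 and 1608 CPM with PCB 126 alone and 992, 856, 537, 632 and 858 CPM with both agents. The groups again did not overlap, and Cyp1a2 fell (log2 fold change −1.04, SE 0.23, adjusted p = 0.0144). Without mouse 3 or mouse 4 of the PCB 126 group its adjusted p was 0.053 and 0.052. With GC correction Cyp1a2 was at −0.97 (SE 0.25, adjusted p = 0.0723), and with the GC slope as a covariate at −0.72 (adjusted p = 0.989). In contrast to Cyp1a1, each mouse of the combined group stayed above the highest HFD control mouse (249 to 517 CPM) and the highest HFD + Aroclor mouse (279 to 492 CPM). Without PCB 126, Aroclor 1260 left both genes with differences that missed the threshold, as Cyp1a1 differed by 0.53 (adjusted p = 0.817, edgeR) and Cyp1a2 by −0.0075 (adjusted p = 0.989) on the log2 scale against HFD control. The difference between the Aroclor effects with and without PCB 126 was −6.40 for Cyp1a1 (unadjusted p = 0.000257 in the edgeR fit) and −1.03 for Cyp1a2 (unadjusted p = 0.00462). Neither passed after adjustment over all genes, with adjusted p of 0.284 and 0.287.

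**Figure D1:**
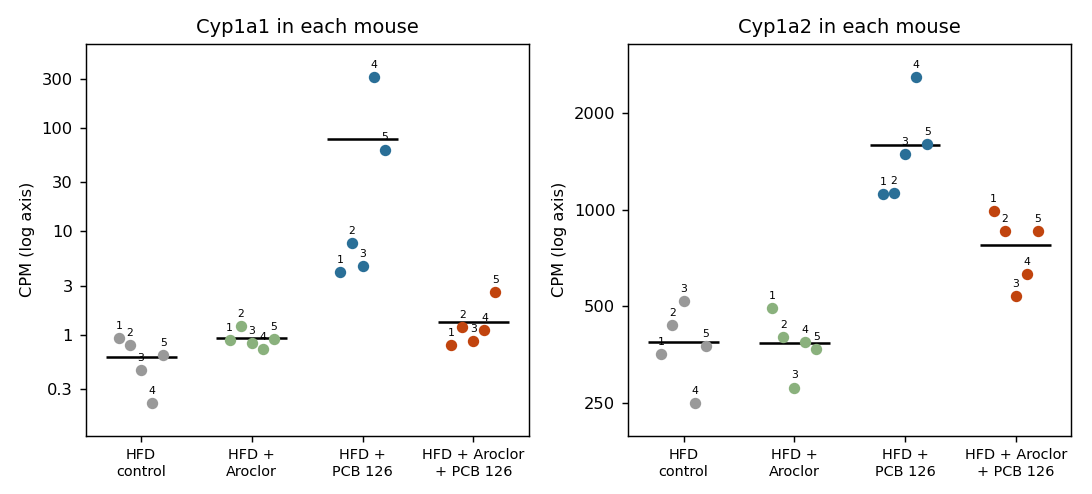
CPM of Cyp1a1 and Cyp1a2 in each of the 20 mice on log axes; points are mice with their replicate number, and lines are group means (n = 5). The 5 mice given both agents lie below the 5 given PCB 126 alone for both genes. The Cyp1a1 range of the combined group overlaps those of the groups without PCB 126, and its mouse 5 (2.62 CPM) lies above them.

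Of 11 tested genes of the AhR pathway, 0 were past the threshold as higher and 2, the Cyp1a genes, as lower, beside 5.64% of all tested genes higher and 11% lower. Of the other 9, 3 were higher at an unadjusted p under 0.05, as were 2678 of all 15522 genes tested. The list's median log2 fold change was 0.271, beside 0.0701 over all genes tested. With GC correction these medians were 0.116 and −0.0362, and with the GC slope as a covariate −0.344 and −0.0146. Cyp1b1, a further AhR-inducible P450, was at 0.492 to 1.37 CPM with PCB 126 and 0.554 to 6.83 CPM with both, where mouse 4 stood far above the rest (log2 fold change 1.49, SE 0.62, adjusted p = 0.0916 in edgeR, 0.0465 in DESeq2). Tiparp and Nqo1 were chosen for the text after their values were seen, as textbook AhR targets. Tiparp, a feedback ADP-ribosyltransferase, was at 11.9, 14.9, 4.5, 8.88 and 9.78 CPM against 10.2, 14.1, 7.77, 18.2 and 20 CPM (log2 fold change 0.49, SE 0.37, adjusted p = 0.34). Nqo1, a quinone reductase, was at 20.5, 9.05, 11.2, 10.9 and 12.4 CPM against 15.8, 13.2, 14.3, 15.9 and 16.9 CPM (log2 fold change 0.25, SE 0.24, adjusted p = 0.477). The groups of all 3 genes overlapped.

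Before the remaining genes are described, the libraries need a measurement of their own, because they differed by group in how their counts followed GC content. The GC slope of a library is the regression slope of its log2 CPM, relative to each gene's mean, on the GC content of the gene's longest transcript, per 10 percentage points. It was −0.311 ± 0.152 (SD, n = 5; −0.503 to −0.112) in the combined group and 0.0948 ± 0.173 (−0.0903 to 0.324) in the PCB 126 group, with no overlap. The difference was −0.406 (two-sided exact permutation test, p = 0.00794, the smallest that 252 splits allow). A different GC trend in the combined libraries was known from earlier results of these data, so this p-value describes a difference already seen. Total counts were 23471120 to 29366462 in the combined and 24212471 to 33131408 in the PCB 126 libraries, a difference that missed the threshold (exact permutation p = 0.0794). With all libraries of a group on one side, GC slope and exposure cannot be told apart. The comparison of these 2 groups was therefore also computed with GC correction. In it, each library's smooth trend over GC content entered the edgeR fit as an offset. The comparison of HFD + Aroclor with HFD control was computed only without this correction.

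**Figure D2:**
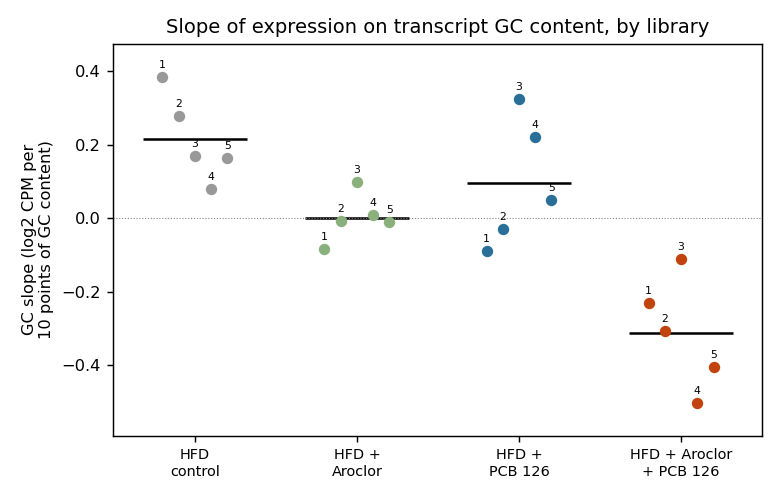
GC slope of each library (log2 CPM per 10 points of transcript GC content), by group; points are mice with their replicate number, and lines are group means (n = 5). All 5 combined libraries (−0.503 to −0.112) lie below all 5 PCB 126 libraries (−0.0903 to 0.324).

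Without GC correction, 2589 genes (16.7% of those tested) were past the adjusted threshold, of which 875 (5.64%) were higher and 1714 (11%) lower with the combined exposure. An unadjusted p under 0.05 was found for 5522 (35.6%). The directions of the 2589 genes followed base composition. The tested genes were cut into 5 bins of equal size by GC content. In the bin of lowest GC content 546 genes were higher and 5 lower, and in the bin of highest 1 was higher and 1005 lower. The median log2 fold change over all genes of these bins was 0.357 and −0.415, and with GC correction it was 0.00191 and −0.0899. With GC correction 0 genes were past the adjusted threshold of 0.05 in edgeR (smallest adjusted p = 0.0586), while 3160 (20.4%) had an unadjusted p under 0.05, 999 (6.44%) higher and 2161 (13.9%) lower, and 627 (4.04%) an adjusted p under 0.10. DESeq2 called 615 genes both with and without the correction, 81 of them higher and 534 lower. Of the 2589 genes, 129 turned sign under the correction, and the median absolute log2 fold change went from 0.565 to 0.33.

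The count also rested on single libraries. Without mouse 3 of the PCB 126 group it was 4, without mouse 4 of that group 288, without mouse 5 of the combined group 269 and without mouse 4 of that group 954, while leaving out each of the other 6 mice gave 1855 to 3416. The 4 genes that passed without mouse 3 of the PCB 126 group were Cyp1a1, Agxt and Ass1, which were lower, and Acer3, an alkaline ceramidase, which was higher (0.61, adjusted p = 0.0366) and lies outside the rule for named genes. Every other call described here was thus lost without that 1 mouse. Of 100 genes whose values are given, Cyp1a1, Agxt and Ass1 were the 3 that passed in 10 of 10 fits without 1 mouse. The 5 and 5 values did not overlap for 1537 genes (9.9%), 616 (3.97%) with the combined group higher and 921 (5.93%) with it lower.

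**Figure D3:**
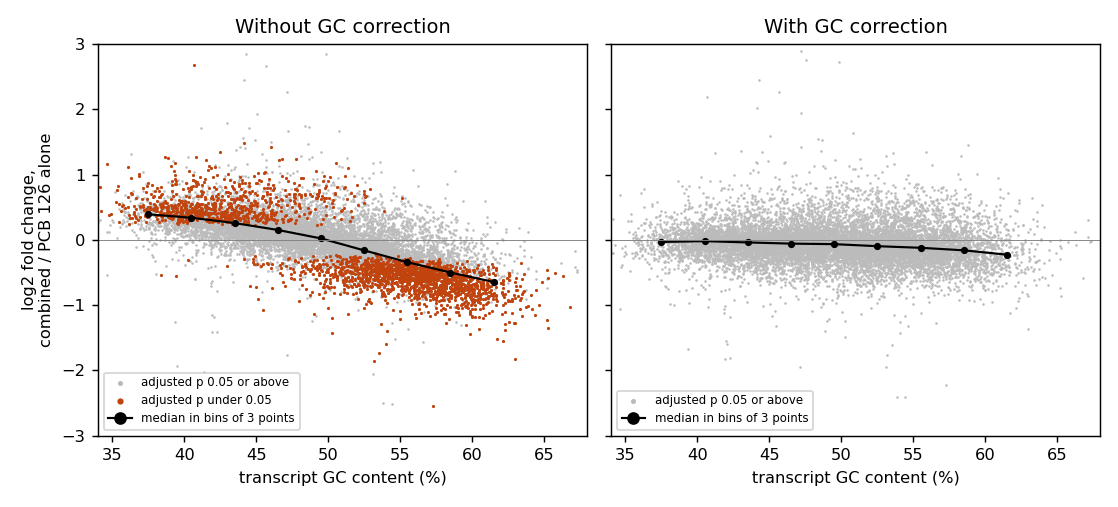
Log2 fold change (combined over PCB 126 alone) of genes with a mean of at least 1 CPM against transcript GC content (%), without (left) and with (right) GC correction; black points are medians in bins of 3 points, orange are genes at adjusted p under 0.05, and genes beyond 3 on the log2 scale are not drawn. The medians fall steadily with GC content on the left, and on the right they are near 0 but still lowest in the bins of highest GC content, with 0 genes past the threshold.

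The genes that changed most in both fits were picked next. The rule fixed for this, an adjusted p under 0.05 with and without GC correction, named 0 genes. With the second threshold eased to 0.10, a choice made after the values were seen, 455 genes (2.93%) had the same sign in both fits, 64 higher (0.412%) and 391 lower (2.52%). Those that were protein-coding, at 1 CPM or more on average and without overlap between the groups numbered 21 higher (0.135%) and 223 lower (1.44%).

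Among the higher ones, Rapgef5, a guanine nucleotide exchange factor for Rap GTPases, rose from a range of 4.61 to 10.5 CPM to one of 11.8 to 18.9 CPM (log2 fold change 1.05, SE 0.19, adjusted p = 0.0136; 0.81 (SE 0.15, adjusted p = 0.0586) with GC correction). Matn2, an extracellular matrix adaptor protein, rose from a range of 1.45 to 2.5 CPM to one of 3.32 to 6.29 CPM (log2 fold change 1.17, SE 0.25, adjusted p = 0.014; 1.13 (SE 0.23, adjusted p = 0.0586) with GC correction). The GC content of Rapgef5 is 45.6% and that of Matn2 50.5%, beside a median of 49.8% over all tested genes. The phosphodiesterases Pde3a and Pde8b, which degrade cyclic nucleotides, rose by 1.01 and 0.98, with 0.68 and 0.97 under the correction. The mitochondrial ATP-Mg carrier Slc25a24 rose by 1.35 and the Cdc42 exchange factor Dock11 by 1.23. The interferon-inducible GTPase Gbp5 (1.06), the lymphatic growth factor cofactor Ccbe1 (0.87), Naalad2 (0.93) and the potassium channel tetramerisation domain gene Kctd12 (0.92) completed the 10, all on the log2 scale without correction, as are the values given after a rise or fall from here on. In 7 of these genes (Slc25a24, Dock11, Matn2, Rapgef5, Pde3a, Pde8b and Ccbe1) mouse 4 of the combined group was the highest of its group, and that mouse had the lowest GC slope. Its library stood apart in other ways too. It had 15524 genes detected, against 14553 to 14997 in the rest of the group. On the first principal component of log2 CPM it was at 69.75, against 5.912 to 31.71. What set this library apart was not tested.

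Among the lower ones, Gnat1, best known as the rod transducin alpha subunit, was at 6.77, 6.03, 6.95, 8.01 and 5.1 CPM with PCB 126 and 2.29, 2.51, 3.22, 2.18 and 2.2 CPM with both agents. The groups lay well apart, and Gnat1 fell (log2 fold change −1.40, SE 0.24, adjusted p = 0.0136; −1.25 (SE 0.23, adjusted p = 0.0586) with GC correction). Its level in HFD control was 3.54 to 6.89 CPM and in HFD + Aroclor 3.52 to 9.39 CPM, so that every mouse of the combined group was below every mouse of the other 3 groups. Dpm3, a subunit of dolichol-phosphate mannose synthase, fell (−1.59), as did Slc16a11, a monocarboxylate transporter (−1.39). Sirt6, a nuclear NAD-dependent deacylase, was at 0.999 to 2.28 CPM against 0.509 to 0.88 CPM (log2 fold change −1.21, SE 0.29, adjusted p = 0.0151). Phldb3 differed by −1.28 and Timm13, a mitochondrial import chaperone, by −1.27. Cyp1a1 and the complex I subunits Ndufs7 and Ndufb7, described elsewhere in the text, and Gm5617 were the other members of the 10.

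Among genes of at least 10 CPM whose groups did not overlap and that passed without but not with GC correction, the largest rises were in Abcd2, Rapgef5, Kctd12, Aqp4 and Ptprc, and the largest falls in Cyp1a1, Ndufs7, Ndufb7, Timm13 and Esrra. As 0 genes passed with the correction, its part of the rule held for every called gene. The set is thus not one of genes that depend on GC content, and some of its members were already named above. Abcd2, a peroxisomal transporter of very long-chain fatty acyl-CoA, went from a range of 4.32 to 19 CPM to one of 19 to 28.4 CPM (1.07 ± 0.36, log2 fold change ± SE here and in the next 3 sentences; 0.77 ± 0.36 with GC correction). Aqp4, a water channel, went from a range of 10.7 to 23 CPM to one of 23.6 to 32.5 CPM (0.89 ± 0.23; 0.55 ± 0.24). Ptprc, which encodes the leukocyte antigen CD45, went from a range of 5.81 to 12.1 CPM to one of 12.5 to 16.5 CPM (0.86 ± 0.21; 0.49 ± 0.21). Esrra, the nuclear receptor ERR alpha that regulates mitochondrial genes, went from a range of 12 to 23.5 CPM to one of 3.56 to 10.7 CPM (−1.20 ± 0.26; −1.24 ± 0.28). Esrra overlaps Trmt112 in the annotation, as Timm13, Bud23, Pus10, Pcif1, Trmt2a, Psmc3, Zfp524, Hnrnpu, Acot4, Irs1 and Matn2 overlap other genes, and whether counting used the strand is not given in the sources used here.

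Urea cycle and amino acid catabolism genes were lower as a group. Of 20 tested, 10 fell and 0 rose past the threshold, beside 11% and 5.64% of all genes, and their median log2 fold change was −0.361 without and −0.32 with GC correction, beside 0.0701 and −0.0362 over all genes. The 10 were Ass1, Asl, Nags, Gls2, Sds, Hgd, Hpd, Agxt, Got1 and Gpt. With GC correction 4 of them (Agxt, Ass1, Hpd and Hgd) had an adjusted p under 0.10 and 0 were under 0.05.

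Agxt (chr1:93135240-93145421), the peroxisomal alanine-glyoxylate aminotransferase, was at 195, 237, 322, 303 and 285 CPM with PCB 126 and 155, 167, 155, 126 and 142 CPM with both. The groups did not overlap, and its adjusted p was the smallest of all genes tested (log2 fold change −0.85, SE 0.12, adjusted p = 0.0108; −0.57 (SE 0.12, adjusted p = 0.0586) with GC correction). HFD control mice had 269 to 284 CPM and HFD + Aroclor mice 191 to 264 CPM of Agxt. Ass1 (chr2:31470207-31520672), the argininosuccinate synthase of the urea cycle, was at 916, 908, 829.9, 1093 and 1051 CPM against 651, 621, 604, 566 and 641 CPM. Its groups did not overlap either (log2 fold change −0.64, SE 0.1, adjusted p = 0.0136; −0.45 (SE 0.12, adjusted p = 0.0752) with GC correction). Both genes stayed past the threshold in 10 of 10 fits without 1 mouse, but neither did with the library GC slope as a covariate, where Agxt was at −0.51 (adjusted p = 0.989) and Ass1 at −0.68 (adjusted p = 0.53). The fit with this covariate called 0 of 15522 genes. It estimates the slope term from the spread within the groups. As the slopes of these 2 groups do not overlap, it compares them at no slope that both hold, for any gene.

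Asl, the argininosuccinate lyase that follows Ass1 in the cycle, fell (−0.72, SE 0.15). Hpd, the hydroxyphenylpyruvate dioxygenase of tyrosine breakdown, was at 2322 to 4266 CPM against 1625 to 2539 CPM (log2 fold change −0.76, SE 0.14, adjusted p = 0.0136; −0.60 (SE 0.15, adjusted p = 0.0723) with GC correction). Hpd lies within the span of Psmd9 on the other strand, so reads of these genes may be exchanged if strand was not used in counting. Hgd, the homogentisate dioxygenase that follows Hpd, fell (−0.30, SE 0.094), as did Got1, the cytosolic aspartate aminotransferase (−0.78, SE 0.26). Other urea cycle genes missed the threshold. Cps1, the carbamoyl phosphate synthetase of the entry step, was at 1751, 2937, 1432, 2148 and 2625 CPM against 2362, 2200.0, 1668, 2100.0 and 2262 CPM (−0.041 ± 0.27). Otc, ornithine transcarbamylase, differed by 0.28 ± 0.12 and Arg1, the arginase that releases urea, by −0.11 ± 0.11 (log2 fold change ± SE). The 10 genes past the threshold are of higher GC content than these 3, with 56.2% in Agxt and 54.7% in Ass1 beside 46.6% in Cps1 and 41.1% in Otc.

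**Figure D4:**
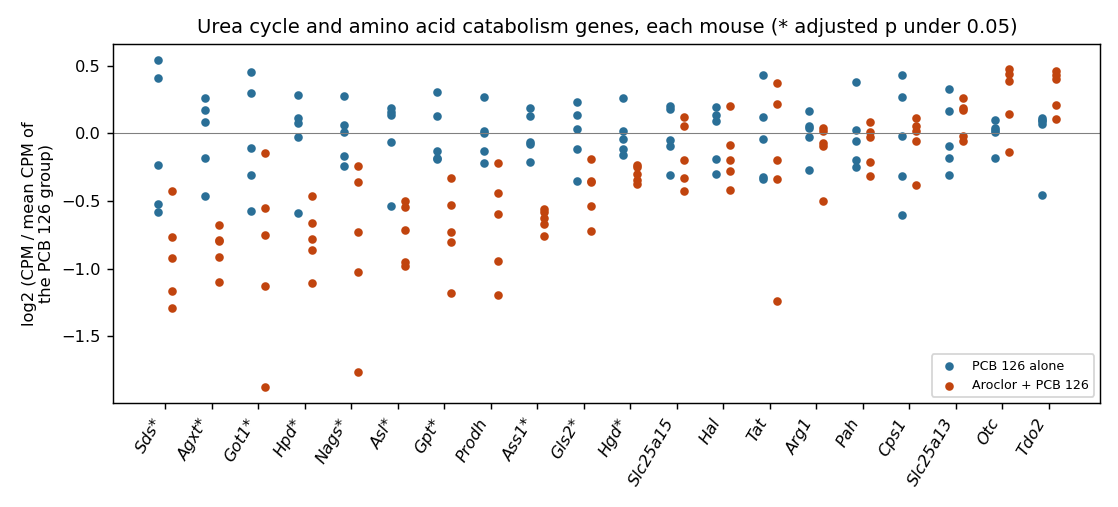
CPM of the 20 tested genes of the urea cycle and amino acid catabolism in each mouse, as log2 of the ratio to the mean of the PCB 126 group; blue points are mice given PCB 126 alone, orange points mice given both (n = 5 each), genes are ordered by log2 fold change, and an asterisk marks an adjusted p under 0.05. All points of the combined group lie below all of the PCB 126 group for Agxt and Ass1, and the groups are interleaved for Cps1.

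More CAR and PXR targets rose than fell when Aroclor 1260 was added. Of 31 tested, 5 rose and 2 fell past the threshold, 22.6% beside 16.7% of all genes, and with GC correction 0 were under an adjusted p of 0.10 in edgeR, with 1 higher and 1 lower at an unadjusted p under 0.05. In that corrected fit 6.44% of all genes were higher and 13.9% lower at an unadjusted p under 0.05. The list's median was 0.404 without and 0.158 with GC correction. The 5 were Cyp2c50, Cyp2c54, Cyp3a11, Cyp3a25 and Akr1b7, of which all but Cyp3a11 lie outside the rule for named genes. Cyp3a11 (chr5:145854426-145879964), the main PXR-induced P450, was at 1940.0, 2468, 2850.0, 3283 and 3027 CPM with PCB 126 and 4524, 4661, 3267, 5495 and 5866 CPM with both. The lowest combined mouse, mouse 3, fell just within the PCB 126 range, and the other 4 lay above it (log2 fold change 0.81, SE 0.23, adjusted p = 0.0258; 0.40 (SE 0.25, adjusted p = 0.371) with GC correction). Cyp3a11 missed the threshold without mouse 3 or mouse 4 of the PCB 126 group (adjusted p = 0.0667 and 0.0545) and without mouse 4 or mouse 5 of the combined group (0.0809 and 0.0727). The mouse Cyp2c and Cyp3a families hold near-identical genes, so the split of reads among them is uncertain.

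Cyp2b10, the standard CAR target, varied widely within each group. It was at 3.64, 9.99, 0.53, 8.71 and 4.01 CPM with PCB 126 and 7.08, 11.9, 1.43, 25.7 and 12.5 CPM with both (log2 fold change 1.13, SE 0.73, adjusted p = 0.266). HFD + Aroclor mice had 2.89 to 30.7 CPM and HFD control mice 0.351 to 6.62 CPM. Akr1b7, an aldo-keto reductase, was at 1.16, 0.741, 0.464, 0.664 and 0.844 CPM against 1.19, 1.62, 0.385, 221 and 1.29 CPM, so that 1 mouse of the combined group set its difference (log2 fold change 5.85, SE 1.93, adjusted p = 0.0438), and without that mouse the log2 fold change was 0.46. One HFD control mouse held 239.9 CPM of Akr1b7. Por, the electron donor of microsomal P450s, fell (log2 fold change −0.63, SE 0.19, adjusted p = 0.032), as did Alas1, the first enzyme of heme synthesis (log2 fold change −0.63, SE 0.19, adjusted p = 0.0336). With GC correction Por stood at −0.28 (SE 0.20, adjusted p = 0.44) and Alas1 at −0.50 (SE 0.21, adjusted p = 0.191).

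In the NRF2 antioxidant response, 2 of 18 tested genes rose and 1 fell, the same 16.7% as over all genes. Gclc, the catalytic subunit of glutamate-cysteine ligase, rose from a range of 135 to 249.7 CPM to one of 265 to 327 CPM without overlap (0.56 ± 0.18, log2 fold change ± SE; 0.40 ± 0.18 with GC correction). Me1, the cytosolic malic enzyme, rose by 0.36, and Keap1, the inhibitor of NRF2, fell (−0.43, and −0.086 with GC correction).

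Among 17 lipid droplet proteins and lipases, 5 fell (Plin5, Cideb, Pnpla2, Lipe and Bscl2) and 1 rose (Hsd17b13), 35.3% beside 16.7% of all genes, with a median of −0.374 without and −0.205 with GC correction and 0.00837 with the GC slope as a covariate. Bscl2, the seipin of droplet formation, was at 44.5, 44.1, 54.4, 58.8 and 44.5 CPM with PCB 126 and 38.4, 30.8, 39.9, 23.4 and 28.6 CPM with both. The groups did not overlap, and the value was as large with GC correction (log2 fold change −0.61, SE 0.14, adjusted p = 0.0144; −0.62 (SE 0.16, adjusted p = 0.0723)). Bscl2 overlaps Gng3 in the annotation. The lipases Pnpla2, which releases the first fatty acid from triglyceride, and Lipe, the hormone-sensitive lipase, fell (−0.63 and −0.81) and stood at −0.33 and −0.59 under the correction. Lipe was at 19.4 to 32.1 CPM against 10.8 to 20.2 CPM.

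Of 25 PPAR alpha targets and fatty acid oxidation genes, 2 rose and 1 fell, 12% and thus below the 16.7% of all genes. Cd36, the fatty acid translocase, was at 380.5, 342, 172, 235 and 260.4 CPM with PCB 126 and 517, 459, 402, 520.3 and 548 CPM with both. All combined mice were above all PCB 126 mice (log2 fold change 0.82, SE 0.20, adjusted p = 0.0166; 0.42 (SE 0.19, adjusted p = 0.211) with GC correction). Its range was 136 to 307 CPM in HFD control and 295 to 426 CPM in HFD + Aroclor. Acot4, a peroxisomal acyl-CoA thioesterase, rose by 0.79 and Cpt2, the inner carnitine palmitoyltransferase, fell (−0.31), both without overlap. In de novo lipogenesis 2 of 20 fell, Acacb, the mitochondrial acetyl-CoA carboxylase (−0.62), and Dgat1, which makes triglyceride (−0.33), and 1 rose, the Me1 already named. This is 15% of the list. The corrected values of Acacb and Dgat1 were −0.35 and −0.031.

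Cholesterol synthesis had 3 of 24 genes lower and 0 higher, 12.5% beside 16.7% of all genes. Mvk, the mevalonate kinase, was at 2.83 to 5 CPM against 1.24 to 2.41 CPM (log2 fold change −1.06, SE 0.23, adjusted p = 0.014; −0.79 (SE 0.21, adjusted p = 0.0767) with GC correction). Its successor Pmvk fell (−0.58), as did the sterol isomerase Ebp (−0.34). In bile acid synthesis and transport 3 of 19 fell (15.8%). Cyp8b1, the sterol 12-alpha-hydroxylase, went from a range of 337 to 788 CPM to one of 206 to 445 CPM (log2 fold change −0.83, SE 0.23, adjusted p = 0.0228), Cyp27a1, the sterol 27-hydroxylase, fell (−0.33), as did Fgfr4, the hepatic FGF15 receptor (−0.58). The median log2 fold change was −0.0196 over the cholesterol list and −0.0653 over the bile acid list. With GC correction 1 of the 24 cholesterol genes and 0 of the 19 bile acid genes were under an adjusted p of 0.10 in edgeR, beside 4.04% of all genes. With that correction fitted and tested only on genes of at least 1 CPM, Fgfr4 stood at −0.11, Cyp27a1 at −0.14 and Cyp8b1 at −0.56.

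Among 16 genes of glucose handling, Fbp1 and Igfbp2 fell and Irs1 rose, 18.8% beside 16.7% of all genes. Fbp1, the gluconeogenic fructose bisphosphatase, went from a range of 969 to 1116 CPM to one of 683 to 933 CPM (−0.37 ± 0.10, log2 fold change ± SE). Irs1, the insulin receptor substrate, rose by 0.50 and stood at 0.45 with GC correction. Of 17 growth hormone and sex-biased genes 11.8% passed. Of these, Igfals, the acid-labile subunit of circulating IGF complexes, fell (−0.82), as did Cyp2d9, a male-biased P450 (−0.67). Of 19 clock genes 1, the repressor Nr1d2, rose (0.41, and 0.077 with GC correction).

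Of 25 complement and coagulation factors 6 (24%) fell and 0 rose, beside 11% of all genes lower, among them F7 (77 to 95.1 CPM against 46.6 to 72.8 CPM; log2 fold change −0.54, SE 0.11, adjusted p = 0.0136), F12 (−0.60) and the anticoagulant protease Proc (−0.61), with C8g, F2 and F10 as the others. With GC correction 0 of the 25 were under an adjusted p of 0.10 in edgeR, beside 4.04% of all genes. With that correction fitted and tested only on genes of at least 1 CPM, F7 stood at −0.26, F12 at −0.14 and Proc at −0.23. Acute phase proteins had the lowest median of the lists, −0.478 over 22 genes, but 1 of them (4.55%), the metallothionein Mt1, passed (170.4 to 255 CPM against 94.5 to 155 CPM; log2 fold change −0.95, SE 0.30, adjusted p = 0.036). Of 16 interferon-stimulated genes 4 passed, 25% beside 16.7% of all genes, as the ubiquitin-like Isg15, its protease Usp18 and the 2-5A synthetase-like Oasl1 fell, and Gbp2, named after its value was seen, rose (log2 fold change 0.99, SE 0.32, adjusted p = 0.0432). Oasl1 was at 17.6, 19.5, 25.7, 19.2 and 23.1 CPM against 8.8, 10.8, 17.2, 6.83 and 9.27 CPM. All its combined mice were below all its PCB 126 mice (log2 fold change −0.99, SE 0.19, adjusted p = 0.0136; −0.73 (SE 0.18, adjusted p = 0.0648) with GC correction). Isg15 fell (−0.93), as did Usp18 (−0.54), with −0.85 and −0.56 under the correction. Of 11 heat shock genes 1, Hspb1, passed (log2 fold change −1.51, SE 0.50, adjusted p = 0.0434). In edgeR 0 genes passed among 13 immediate early, 18 ER stress, 12 pericentral and 24 cell cycle genes, of which 2, 4, 2 and 3 had an unadjusted p under 0.05. Each of these shares was below the 35.6% of all genes tested.

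Of 83 nuclear-encoded oxidative phosphorylation subunits, 24 (28.9%) fell and 0 rose, beside 11% of all genes lower, with a median of −0.289 without and −0.334 with GC correction. In other fits the list's median was near or above 0, at 0.0809 with the GC slope as a covariate, −0.0393 in the 3 libraries a group nearest in slope and −0.0644 without mice 3 and 4 of the PCB 126 and mouse 4 of the combined group. With the GC correction 12 of them were under an adjusted p of 0.10. Ndufs7, of the hydrogenase arm of complex I, was at 23, 30.7, 57.5, 50.2 and 37.1 CPM with PCB 126 and 20.6, 17.2, 20.1, 8.98 and 13.4 CPM with both (log2 fold change −1.31, SE 0.24, adjusted p = 0.0136; −0.90 (SE 0.20, adjusted p = 0.0587) with GC correction). The PCB 126 mice stood in the order of their GC slopes, with mouse 3 highest in both, and mice 4 and 5 of the combined group had the lowest Ndufs7 level and the lowest slopes. Ndufb7 of the same complex fell (−1.28, and −1.15 with GC correction), as did Atp5g2, a c subunit of ATP synthase (−1.05, and −0.61 with GC correction). Of 38 proteasome subunits 15 (39.5%) fell and 0 rose, with medians of −0.142 and −0.317, and −0.0421 with the GC slope as a covariate. Psmd3, of the lid of the regulatory particle, went from a range of 57.8 to 94.8 CPM to one of 29.6 to 56.6 CPM (log2 fold change −0.77, SE 0.15, adjusted p = 0.0136; −0.55 (SE 0.14, adjusted p = 0.0696) with GC correction). Psmd9, an assembly chaperone, fell (−0.48), as did the base ATPase Psmc3 (−0.55). With the library GC slope as a covariate, Ndufs7 stood at −0.19 and Ndufb7 at 0.067.

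**Figure D5:**
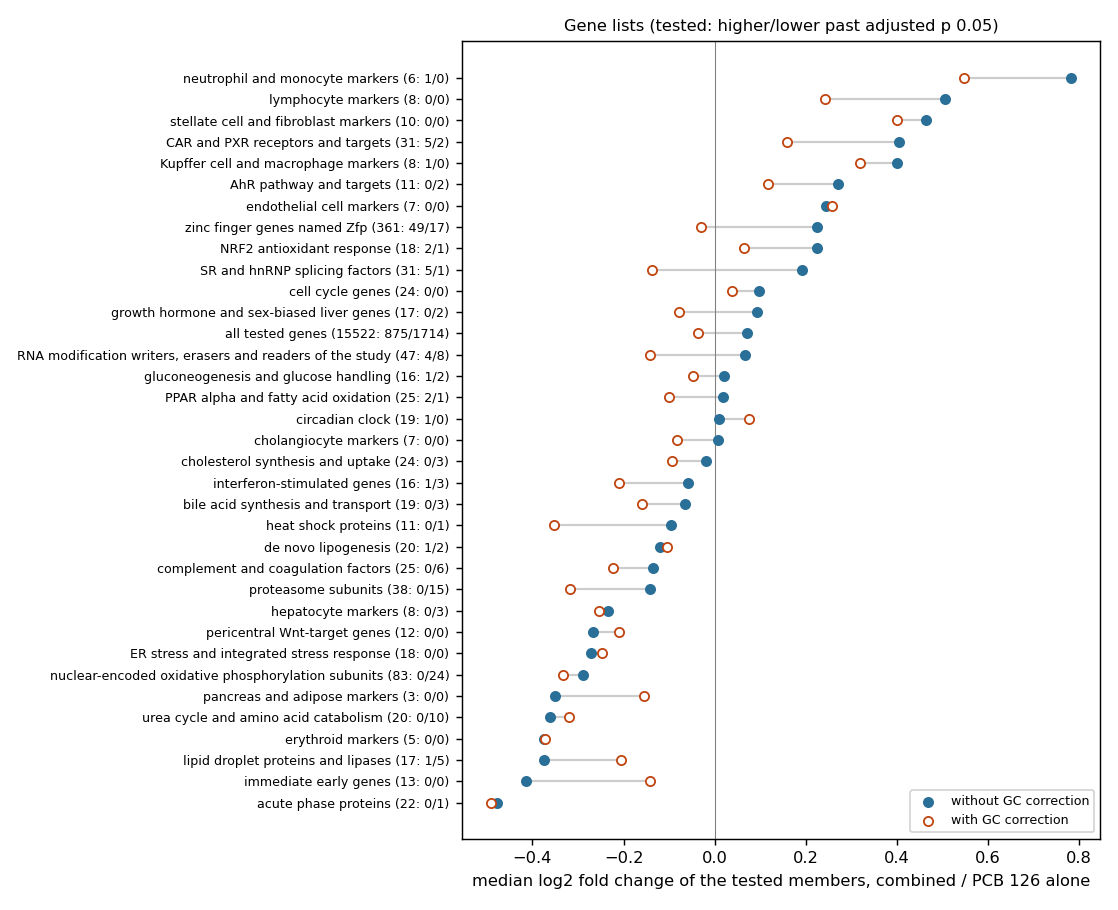
Median log2 fold change (combined over PCB 126 alone) of the tested members of each gene list, without (filled) and with (open) GC correction; brackets give the number tested and the numbers higher and lower at an adjusted p under 0.05 without correction. The medians of the splicing factors and of the Zfp genes go from above to below 0, and those of the urea cycle and amino acid genes and of the acute phase proteins stay nearly in place.

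Splicing factors and zinc finger genes, lists of low median GC content (43.6% and 44.1%), had more members higher than lower. Of 31 SR and hnRNP splicing factors 5 rose and 1 fell, 19.4% beside 16.7% of all genes, with a median of 0.191 that went to −0.138 with GC correction. Srsf1 (40.6% GC) was at 71.7, 73.3, 56.4, 65.6 and 69.4 CPM against 93.4, 85.7, 87.6, 96.8 and 91.3 CPM. All 5 combined mice were above all 5 PCB 126 mice (log2 fold change 0.43, SE 0.097, adjusted p = 0.0143), and with GC correction the value was 0.069 (SE 0.085, adjusted p = 0.689). Srsf10 went from 0.40 to 0.049 and Hnrnpu from 0.31 to −0.061. Of 361 zinc finger genes named Zfp, 49 rose and 17 fell (18.3%), with a median of 0.225 that went to −0.0299. Zfp992 was at 3.51 to 7.46 CPM against 8.61 to 12.8 CPM (0.97 ± 0.23, log2 fold change ± SE; 0.52 ± 0.22 with GC correction). Zfp524 fell (−1.03, and −0.64 with GC correction), as did Zfp710 (−0.59, and −0.37 with GC correction).

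The study followed enzymes and proteins that write, erase or read RNA modifications, a list the study chose on these animals, so that its direction is not independent evidence. Of 47 tested, 4 rose and 8 fell, 25.5% beside 16.7% of all genes, and the median went from 0.0675 to −0.143 with GC correction. The 4 that rose were Wtap, Pus10, Ythdf3 and Igfbp3. Igfbp3, and Igfbp2 among those that fell, were counted because the study lists them as readers. Their symbols stand for insulin-like growth factor binding proteins, so neither value speaks for a reader of RNA modifications. Ythdf3, a reader of N6-methyladenosine, was at 51.4, 58.9, 36.9, 45.6 and 59.4 CPM against 73.4, 73.6, 62.7, 67.2 and 77.5 CPM. Its groups were apart (log2 fold change 0.49, SE 0.16, adjusted p = 0.0441), but at 38.4% GC its value with correction was 0.087 (SE 0.12, adjusted p = 0.734). Pus10, a pseudouridine synthase, went from 0.43 to 0.12, and Wtap, a subunit of the N6-methyladenosine methyltransferase, turned from 0.25 to −0.14. Igfbp3 kept its size (0.70 ± 0.20; 0.77 ± 0.20 with GC correction).

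Trmt1, which dimethylates guanosine in tRNA, was at 19.1, 25.3, 32.5, 31.5 and 24.9 CPM against 19.2, 16, 19, 14.6 and 17.1 CPM. Its groups touched only at the lowest PCB 126 mouse (log2 fold change −0.63, SE 0.13, adjusted p = 0.0136; −0.56 (SE 0.13, adjusted p = 0.0598) with GC correction), and it overlaps Nacc1 in the annotation. Ftsj1, a tRNA 2′-O-methyltransferase, fell (−0.25) and stood at −0.36 under the correction. Bud23, the 18S rRNA N7-guanosine methyltransferase, fell (−0.60, and −0.34 with GC correction), as did Pus1, a pseudouridine synthase (−0.68, and −0.35 with GC correction), and Trmt2a, a tRNA 5-methyluridine methyltransferase (−0.42, and −0.39 with GC correction). Pcif1, the writer of N6,2′-O-dimethyladenosine at mRNA caps, fell (−0.41, and −0.12 with GC correction). Igfbp2 went from a range of 114 to 693 CPM to one of 85.6 to 173 CPM (−1.55 ± 0.36; −1.04 ± 0.32), and Prrc2a, an N6-methyladenosine reader, fell (−0.68, and −0.28 with GC correction).

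Cell type markers were checked beside these results. The 8 hepatocyte markers summed to 95300 to 111000 CPM with PCB 126 and 98600 to 129000 CPM with both, and 3 of them fell, namely Apoa1 (−0.60), Serpina1c (−0.51) and Asgr1 (−0.51). They are 37.5% of the list, beside 11% of all genes lower. At an unadjusted p under 0.05 in edgeR, 4 of the 8 were lower and 2 higher. With GC correction 0 of the 8 were under an adjusted p of 0.10 in edgeR. With that correction fitted and tested only on genes of at least 1 CPM, Apoa1 stood at −0.19, Serpina1c at −0.44 and Asgr1 at −0.44. The 8 Kupffer cell and macrophage markers summed to 138 to 386 CPM against 278 to 380 CPM, and 1 rose (12.5%, beside 5.64% of all genes higher). Adgre1, the macrophage antigen F4/80, was at 17.9, 14.2, 9.07, 6.64 and 5.63 CPM against 22.7, 16.9, 21.2, 20 and 19.3 CPM (log2 fold change 0.90, SE 0.27, adjusted p = 0.0307; 0.74 (SE 0.26, adjusted p = 0.132) with GC correction). Cd68, a further macrophage gene, was at 11.8, 8.6, 7.52, 4.81 and 4.19 CPM against 8.93, 8.22, 11.3, 7.34 and 6.4 CPM, with overlap (log2 fold change 0.19, SE 0.24, adjusted p = 0.589). Among 6 neutrophil and monocyte markers, summing to 3.36 to 9.09 CPM against 7.2 to 14.8 CPM, Ccr2, the monocyte chemokine receptor, rose (log2 fold change 1.17, SE 0.34, adjusted p = 0.027), with mouse 1 of the PCB 126 group at 5.67 CPM and the other 4 at 1.9 to 2.12 CPM. Ccr2 alone is 16.7% of that list, beside 5.64% of all genes higher. Of 10 stellate cell and fibroblast markers (204 to 387 against 330 to 378 CPM), 7 cholangiocyte (63.6 to 123 against 63.1 to 131 CPM), 7 endothelial (91.9 to 170 against 138 to 170 CPM), 8 lymphocyte (4.4 to 6.12 against 5.27 to 8.63 CPM), 5 erythroid (137 to 326 against 156 to 294 CPM) and 3 pancreas and adipose markers (11.8 to 23.8 against 10.7 to 15 CPM), 0 passed in edgeR, while 2 stellate, 3 endothelial and 3 lymphocyte markers and 0 of the other 3 kinds had an unadjusted p under 0.05. Over all genes tested, 35.6% had an unadjusted p under 0.05. No tested marker was at 0 in all 10 libraries. The part of these cells in the results above was not tested.

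Aroclor 1260 without PCB 126 gives a second reading of the same agent. Between HFD + Aroclor and HFD control, 0 genes passed in edgeR (smallest adjusted p = 0.116) and 2677 (17.2%) had an unadjusted p under 0.05. The median log2 fold changes of the bins of lowest and highest GC content were 0.203 and −0.225 in that comparison. The 2 comparisons share no mice, and some named genes had like values in both. All values of this paragraph are without GC correction, and the medians of these bins had the same signs in both comparisons. The genes below were picked as examples by their values. What the GC trend adds to the likeness was not tested. Kctd12 differed by 0.90 there and by 0.92 here, Abcd2 by 1.18 and 1.07, Aqp4 by 0.83 and 0.89, Adgre1 by 0.84 and 0.90, Ccr2 by 1.33 and 1.17, and Cd36 by 0.71 and 0.82. Others had a value near 0 without PCB 126, such as Gnat1 (0.0096 there and −1.40 here), Rapgef5 (0.029 and 1.05), Oasl1 (−0.099 and −0.99) and Ass1 (−0.11 and −0.64). The test of the difference between the 2 Aroclor effects called 0 genes in edgeR (smallest adjusted p = 0.284), with 1846 (11.9%) at an unadjusted p under 0.05.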

How the data were processed

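RNA was isolated from frozen livers with RNeasy columns. Stranded libraries of polyadenylated RNA were sequenced. Per the labels and the submitters' processing notes, the authors checked reads with FastQC 0.10.1, aligned them with STAR 2.6 to mm10/GRCm38.p6 and counted reads per gene with HTSeq 0.10.0, and they deposited raw counts per Ensembl gene. Which annotation release was counted, and with which strand option, is not given in the sources used here. Columns were matched to mice by group and number in the labels. The library name of PCB 126 replicate 2 carries another number than its title, and the title was followed.

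Counts were analysed with edgeR 4.0.16 in R 4.3.3 (TMM scaling, quasi-likelihood fit of all 4 groups, 16 residual degrees of freedom, two-sided, Benjamini-Hochberg over 15522 genes, threshold 0.05), with DESeq2 1.42.0, other scalings and filters, the 2 groups alone, a replicate block and each mouse left out as alternatives. P-values measure the spread between mice. Symbols, positions, overlaps and GC content (15516 genes) came from GENCODE M21 on GRCm38.p6. In the GC correction a natural spline with 6 degrees of freedom of each library's log2 CPM (prior count 2) over GC content entered as an offset. Named genes were, per direction, the 10 largest changes past both fits (0 genes, then eased as described) and the 5 largest of at least 10 CPM past the uncorrected fit only, the 3 members of each of 34 lists with the smallest p, all RNA modification genes past the threshold, and Cyp1a1, Cyp1a2, Cyp2b10, Cyp3a11 and Cd68. The comparison, lists and genes were chosen with earlier results of these data known, and Tiparp, Nqo1, Akr1b7, Gbp2, Asl, Hgd, Got1, Cps1, Otc, Arg1 and Acer3 were added after their values were seen. No 2 libraries of one group were duplicates, as the chi-square per degree of freedom was 18.7 or more in all 40 pairs. Scripts were tested on simulated data. At these depths a gene at 1 CPM had more than 20 counts in each library. Mitochondrially encoded and ribosomal protein genes were not analysed here.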

Additional observations from a re-analysis of the deposited data

Results flagged for a closer look

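In 18 of 202 groups of 5 values tested by Dixon's criterion, over the named genes and the GC slope, 1 mouse stood far from the other 4. The criterion is set to flag about 1 in 20 independent groups of normally distributed values. These groups are mostly CPM of selected genes in the same mice, so the 18 cannot be set against that rate. In the PCB 126 group, mouse 1 was high for Nqo1 (20.54 CPM, the others 9.05 to 12.4), Ccr2 (5.67, the others 1.9 to 2.12), Dock11 (1.73, the others 0.705 to 0.999) and Gbp5 (1.73, the others 1.09 to 1.16) and low for Pnpla2 (58.1, the others 88.3 to 99.2). Mouse 3 of that group was low for Srsf10 (14.1, the others 17.5 to 18.9) and high for Asgr1 (876, the others 615 to 671) and Phldb3 (5.2, the others 2.83 to 3.32). Mouse 4 was high for Cyp1a1 (314, the others 4.08 to 62.1) and low for Naalad2 (0.664, the others 1.16 to 1.34).

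In the combined group, mouse 4 was high for Akr1b7 (221, the others 0.385 to 1.62), Cyp1b1 (6.83, the others 0.554 to 1.43), Slc25a24 (5.82, the others 2.06 to 2.97), Pde3a (7.2, the others 3.45 to 3.83), Ccbe1 (9.34, the others 4.65 to 5.91) and Me1 (159.6, the others 115 to 128). Mouse 5 was high for Cyp1a1 (2.62, the others 0.792 to 1.19) and mouse 3 low for Arg1 (924, the others 1227 to 1345). All values are CPM.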

How the results depend on the processing

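The 2589 genes past the threshold were 2079 to 3697 under other scalings, filters, DESeq2 and the fit of the 2 groups alone, but 0 with GC correction, GC and length correction or the library GC slope as a covariate, and 0 at an adjusted p under 0.01. Of the alternatives chosen after seeing the data, the GC trend fitted over genes of at least 1 CPM gave 152, testing only those genes 542, the 3 libraries a group nearest in GC slope 0 (688 at an unadjusted p under 0.05) and leaving out mice 3 and 4 of the PCB 126 and mouse 4 of the combined group 0 (1484). Leaving out 1 mouse gave 4 to 3416. The share of higher genes was 33.8%, but 44% with upper-quartile scaling and 44.6% with a filter on FPKM.

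Genes past the threshold both with and without GC correction numbered 0, but 615 with DESeq2, 308 with filterByExpr, 230 with the FPKM filter, 1 with the 2 groups alone, 120 with the trend over genes of at least 1 CPM, 382 when only those were tested, and 0 to 584 without 1 mouse (584 without mouse 1 of the PCB 126 group, 10 without mouse 3 of the combined group). The causes were not tested. The GC slope difference was −0.349 to −0.456 without 1 mouse.

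Replicate numbers did not pair the mice: same-numbered deviations correlated at −0.26 to 0.415, over 0.1 in 2 of 5 pairs, and 4 mice correlated best with their own number. With a replicate block the count was 3127, or 465 with GC correction, 385 genes passed both, and the difference between the Aroclor effects gave 38 genes, or 41 with GC correction, where it was 0 without the block.

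Over 100 named genes and all alternatives, 1546 values kept their direction and side of the threshold, 997 lost and 3 gained significance, and 39 values of 19 genes turned sign. With the GC slope as a covariate these were Cyp1b1 (−0.34), Tiparp (−0.75), Cyp2b10 (−0.98), Keap1 (0.12), Pus10 (−0.085), Ythdf3 (−0.044), Trmt2a (0.14), Ndufb7 (0.067), Zfp524 (0.025), Me1 (−0.0086), Fgfr4 (0.031), Proc (0.077), Timm13 (0.029), Akr1b7 (−4.87) and Otc (−0.051). With the 3 libraries nearest in slope Tiparp was at −0.20. With GC correction, GC and length correction, and GC correction with the replicate block, Wtap was at −0.14, −0.14 and −0.14, Hnrnpu at −0.061, −0.14 and −0.060, and Otc at −0.091, −0.077 and −0.10. With the trend over genes of at least 1 CPM and with only those tested, Wtap was at −0.12 and −0.12, Hnrnpu at −0.039 and −0.044, Otc at −0.071 and −0.077, Keap1 at 0.025 and 0.019, and Dgat1 at 0.068 and 0.063. Cps1, at −0.04, was at 0.0026 with the FPKM filter and, without 1 mouse, at −0.16 to 0.091, being 0.0083, 0.091 and 0.035 without mouse 3 of the combined and mice 2 and 5 of the PCB 126 group.

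Depth of 23471120 to 33131408 counts limits genes under 1 CPM most.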
